A study of Mus musculus with 11 samples.

Results

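BV2 cells are a transformed line of mouse microglia, the resident macrophages of the brain, and their strain label is C57BL/6. In one experiment, 3 samples were treated with nApoE4 1–151 (group ApoE4) and 3 untreated samples (ControlA) were their controls. In a separate experiment, 2 samples were treated with nApoE3 1–151 (ApoE3) and 3 untreated samples (ControlB) were the controls. The fragments are histidine-tagged recombinant proteins that hold residues 1 to 151 of apolipoprotein E and differ at 1 amino acid, and each was given at 25 µg/ml for 5 h. The response common to both fragments was taken from all 11 samples of the series, 6 of the nApoE4 experiment and 5 of the nApoE3 experiment. It is the mean of the ApoE4 minus ControlA change and the ApoE3 minus ControlB change of each gene on the log2 scale, and every change was taken within its own experiment. The rule used labels alone and no measured value. The experiments share no sample, so a gene called in both was called on separate libraries. Fragment and experiment cannot be told apart, since each fragment was used in 1 experiment. All samples come from 1 transformed line at 1 dose and 1 time. The study describes its trials as independent, while the labels and methods do not say whether the samples of a group were separate cultures. P-values measure only the spread between these samples, which may be technical if they were not. The labels describe the controls as untreated and name a PBS vehicle, while the methods of the study name conditioned media, so what the controls received is not settled.

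Depth was 39732710 to 44162511 counts on genes per library in the nApoE4 experiment, 55809688 to 69768666 in ControlB and 61191937 to 63563784 in ApoE3. At these depths 3 counts, the floor used here for a fold change, lie below 0.1 CPM (counts scaled to the library size, here after the TMM method), which covers counting error only. Of 10 microglia and macrophage markers 9 were high enough to be tested, and their summed level was 2543 to 4106 CPM in every library, with Aif1 under 1 CPM. Markers of T cells, B cells and fibroblasts summed to less than 0.4 CPM in every library. Endothelial markers summed to 150.3 to 177 CPM in ControlA, 62.8 to 71.97 CPM in ApoE4, 64.2 to 66.5 CPM in ControlB and 43.4 to 48.1 CPM in ApoE3, nearly all from Kdr, a growth factor receptor, which was lower in both (−0.94 on the log2 scale), while 3 of the 5 markers were under 1 CPM in every library, with Cldn5 at 0 counts. Oligodendrocyte markers summed to 22.9 to 43.3 CPM over all libraries, mainly from Mbp and Cnp, and Cnp was lower in both (−0.37), while Mog was at 0 counts. Neuron markers summed to 1.19 to 6.46 CPM, most of it Tubb3, at means of 2.098 CPM in ControlA, 5.61 CPM in ApoE4, 0.837 CPM in ControlB and 1.03 CPM in ApoE3, and not called in both. The astrocyte markers summed to 1.36 to 1.99 CPM in the controls and 5.88 to 7.89 CPM in the treated samples, from Slc1a2 and Slc1a3, while Gfap, Aqp4 and Gja1 stayed under 0.1 CPM in every group. The part of these levels in the results was not tested. In bulk RNA, fewer cells of a type and less RNA per cell cannot be told apart. Of 931 listed genes in the files, 26 had 0 counts in all 11 libraries, among them B2m, Ifit1, Ccl5, Cxcl10, Il6 and P2ry12. B2m is used by nearly all cells, so a count of 0 is not read as absence of the transcript.

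Microglia sense microbial and damage-derived molecules through Toll-like receptors, whose adaptors lead to 2 main programs of transcription. The NF-kB program raises cytokines, chemokines and its own inhibitors. The interferon program runs through interferon regulatory factors and secreted interferon-beta, and raises antiviral effectors such as guanylate-binding proteins and oligoadenylate synthetases. Macrophages that enter this activated state are also known to slow their cell cycle and to lower genes of the resting, homeostatic state. These points are background and not results of these data.

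Many genes moved the same way in both experiments. On average over the 11 samples, 4987 of 15287 genes (32.6%) were higher and 5047 (33%) lower in treated samples at an adjusted p-value under 0.05, tested with the quasi-likelihood method of edgeR and adjusted after Benjamini and Hochberg. Every adjusted p below is of this test on the average effect unless said otherwise, and each value after ± beside a log2 change is its approximate standard error. A stricter reading asked for a call in each experiment alone. Of the 13750 genes tested in all fits, 2925 (21.3%) were higher in both and 3066 (22.3%) lower in both, and 502 (3.65%) were called in opposite directions. The 21.3% and 22.3% are the shares to set beside the counts of each gene list below. All of the 2925 and 3066 were also called on average, while 3321 genes were called on average without a call in both. Scaling by library size alone, in place of TMM, moved the median average change of all genes by −0.11 on the log2 scale and turned the split of shared calls into 2228 higher and 4092 lower. The smallest average change among genes higher in both was 0.12, so that small changes depend on the scaling, and changes below are relative to the TMM scale.

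The shared increases reached further than the shared decreases. Genes higher in both had a median average log2 change of 0.68 and a largest of 8.76, and genes lower in both had a median of −0.60 and a lowest of −4.80. The median over all 13750 genes was −0.0088. Above a 2-fold change in each experiment, 902 genes (6.56%) rose and 540 (3.93%) fell. Of these, 388 rose and 78 fell over 4-fold in both, and 88 rose and 2 fell over 16-fold in both. Many of the large increases started from low levels: 40.5% of the 902 genes had a mean under 1 CPM in both control groups, against 10.9% of the 540 and 13.8% of all genes. Because of this, 76 of the 902 had 3 counts or fewer in every control library of an experiment, and the median of the 902 was 2.17 as fitted and 2.13 with those genes at their lower bound.

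**Figure D1:**
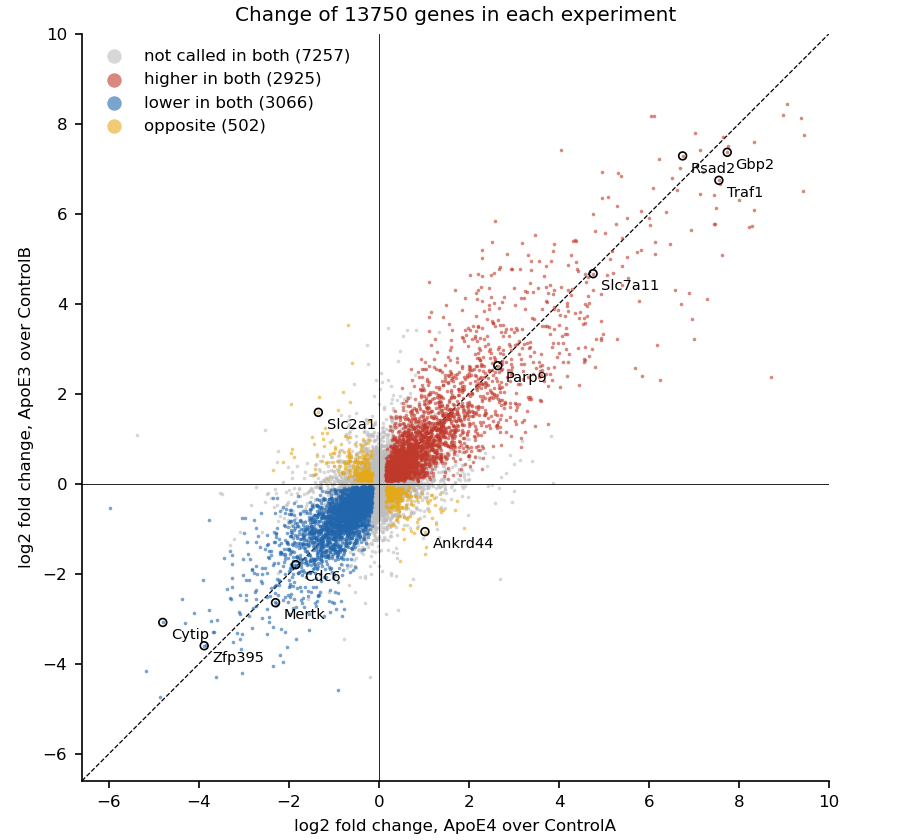
Log2 fold change with nApoE3 1–151 (y axis) against that with nApoE4 1–151 (x axis), 1 point per gene for the genes tested in all fits, coloured by whether the gene was called higher in both experiments, lower in both, in opposite directions or not in both, with labelled genes ringed and equal changes on the dashed line. Genes called in both lie at the upper right (2925) and lower left (3066), and the upper right cloud reaches further from 0.

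Moving the same way was not the same as moving by the same amount. The difference between the experiments passed the test for 4237 of the 13750 genes (30.8%), for 1000 of the 2925 genes higher in both (34.2%) and for 956 of the 3066 lower in both (31.2%). The 95% interval of the log2 difference lay within 1 on either side of 0 for 75.8% of genes higher in both, for 86.5% of genes lower in both and for 74.6% of all genes. Among the genes over 2-fold it did so for 44.3% of the increases and 63.5% of the decreases. A gene can pass both criteria, where a difference is small and precise, as 665 of the genes higher in both did.

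Guanylate-binding proteins, chemokines, cytokines and macrophage enzymes led the increases. Gbp5, an interferon-inducible GTPase that promotes inflammasome assembly, measured 0.141, 0.112 and 0.129 CPM in ControlA, 82.05, 84.9 and 89.2 CPM in ApoE4, 0.227, 0.162 and 0.390 CPM in ControlB and 75.99 and 67.7 CPM in ApoE3. Gbp2, a GTPase of the same family, measured 1.503, 1.43 and 1.35 CPM in ControlA, 313, 286 and 313 CPM in ApoE4, 1.44, 1.42 and 1.88 CPM in ControlB and 273 and 247 CPM in ApoE3. In both genes the 5 treated libraries lay far above the 6 control libraries, and the groups did not overlap. Such separation was common. Treated and control libraries did not overlap in either experiment for 7597 of the 13750 genes tested in all fits. The same held for 2879 of the 2925 genes higher in both and 3006 of the 3066 lower in both, so it does not mark out the genes named here. The average log2 change was 8.75 ± 0.098 for Gbp5 (adjusted p = 7.02e-16) and 7.55 ± 0.067 for Gbp2 (adjusted p = 1.45e-16), and Gbp6, on the same scale, changed by 7.28 ± 0.16 (adjusted p = 1.47e-13). Cxcl2, a chemokine that draws neutrophils, measured 0.751, 0.491 and 0.364 CPM in ControlA, 265, 265 and 274 CPM in ApoE4, 0.793, 0.953 and 0.869 CPM in ControlB and 259.5 and 254 CPM in ApoE3. Its average log2 change was 8.59 ± 0.073 (adjusted p = 1.22e-16), and no treated library came near the controls. Il12b, the p40 subunit of interleukin 12 and interleukin 23, measured 0.0705, 0.0669 and 0.0857 CPM in ControlA, 47.5, 54.8 and 58.1 CPM in ApoE4, 0.0708, 0.0808 and 0.0887 CPM in ControlB and 19.8 and 15.7 CPM in ApoE3 (8.60 ± 0.13, adjusted p = 7.17e-15). Its controls had only 3, 3 and 4 counts in ControlA and 5, 5 and 5 in ControlB, so this size rests on control counts close to the floor of 3.

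Other genes among the 12 largest increases belong to signalling and adhesion. Traf1, an adaptor of TNF receptors and a target of NF-kB, measured 1.06, 0.981 and 1.20 CPM in ControlA, 201, 205 and 203 CPM in ApoE4, 1.05, 1.28 and 1.15 CPM in ControlB and 124 and 125 CPM in ApoE3, an average log2 change of 7.15 ± 0.050 (adjusted p = 2.01e-17). This was the smallest standard error among those 12 genes, and the treated libraries of both experiments lay far above every control. Vcam1, an adhesion ligand for leukocyte integrins, measured 0.235, 0.112 and 0.0429 CPM in ControlA, 14.6, 11.1 and 14.2 CPM in ApoE4, 0.170, 0.0969 and 0.213 CPM in ControlB and 21.7 and 19.96 CPM in ApoE3 (6.85 ± 0.17, adjusted p = 5.55e-13). Rsad2, the antiviral enzyme viperin, measured 1.20, 0.914 and 1.16 CPM in ControlA, 111, 118 and 122 CPM in ApoE4, 4.21, 5.396 and 8.003 CPM in ControlB and 933 and 869.7 CPM in ApoE3 (7.01 ± 0.13, adjusted p = 4.03e-14). Zfp811, a gene of the C2H2 zinc-finger family, went from 0.282, 0.268 and 0.150 CPM in ControlA to 31.9, 37.7 and 33.3 CPM in ApoE4 and from 0.212, 0.113 and 0.355 CPM in ControlB to 28.8 and 26.4 CPM in ApoE3. It stands apart from its family by the size of its average log2 change of 7.07 ± 0.13 (adjusted p = 2.95e-14).

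**Figure D2:**
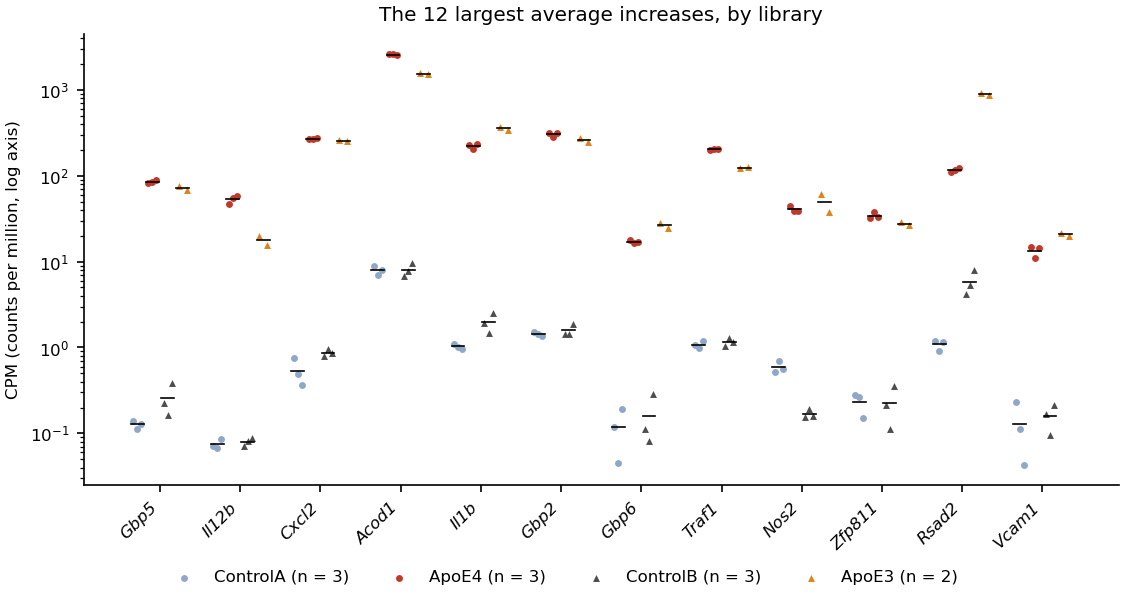
CPM in each library on a log axis for the 12 genes with the largest average increase, 1 point per library, coloured by group, with a bar at each group's mean. For each gene the 5 treated libraries lie above the 6 control libraries with no overlap.

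Promoters of 3 leading genes, chosen because they hold short motifs that belong to the programs above, are printed. They are the 250 bases before the RefSeq transcription start in GRCm38.p6, on the plus strand, from 5′ to 3′, with motif matches in capitals. Matches were searched on both strands. The interferon-stimulated response element was searched as GAAANNGAAA, and the kB site as GGGANTTTCC. The matches are in capitals as they read on the plus strand. Gbp5 (chr3:142496684-142496933) holds the first on the minus strand at bases 86 to 95 and the second on the minus strand at bases 174 to 183. Gbp2 (chr3:142620413-142620662) holds the first on the minus strand at bases 192 to 201, and Cxcl2 (chr5:90903649-90903898) holds the second on the plus strand at bases 154 to 163.
Gbp5: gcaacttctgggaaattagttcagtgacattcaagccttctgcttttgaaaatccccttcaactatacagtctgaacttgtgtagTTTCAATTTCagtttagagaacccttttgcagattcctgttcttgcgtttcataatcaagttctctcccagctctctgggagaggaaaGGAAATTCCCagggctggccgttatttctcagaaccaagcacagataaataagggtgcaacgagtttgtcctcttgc
Gbp2: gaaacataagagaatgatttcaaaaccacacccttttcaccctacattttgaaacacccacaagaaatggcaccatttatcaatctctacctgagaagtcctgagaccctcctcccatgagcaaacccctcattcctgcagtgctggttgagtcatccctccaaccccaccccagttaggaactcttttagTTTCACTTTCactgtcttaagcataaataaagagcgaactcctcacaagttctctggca
Cxcl2: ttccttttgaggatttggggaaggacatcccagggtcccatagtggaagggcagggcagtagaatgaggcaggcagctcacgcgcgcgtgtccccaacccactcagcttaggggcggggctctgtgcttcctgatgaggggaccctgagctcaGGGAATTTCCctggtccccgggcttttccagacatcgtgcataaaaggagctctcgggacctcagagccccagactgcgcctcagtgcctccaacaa
Over windows of 300 bases, which add 50 bases after the start, the response element was present in 3.12% of the 10356 promoters of tested genes. Its share was 5.26% in genes higher in both, 9.88% in those over 2-fold higher and 1.89% in genes lower in both. The kB site was present in 0.425% of all promoters, in 1.06% of those of genes over 2-fold higher and in 0.794% of those over 2-fold lower. It was present in 3 of 21 promoters of the NF-kB list, 1 of 7 of chemokines and 0 of 8 of cytokines. Among other leading increases, Rsad2 held the response element, and Traf1, Acod1 and Zfp811 held neither motif. Cytip, which leads the decreases described below, held the response element. A match of letters is a description and not a bound site.

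Interferon-stimulated effectors held the highest share of shared increases among the 40 lists. Of 36 tested members 35 (97.2%) rose in both experiments, against 21.3% of all genes, and 34 of them rose over 2-fold in each. The median average log2 change was 3.41 (3.21 with 4 genes at their lower bound), against −0.0088 for all genes. Samhd1, a dNTP hydrolase that limits viral replication and is named here after its values were seen, was the member not called in both: its average log2 change was 0.19 ± 0.032, with −0.14 in the nApoE4 experiment and 0.52 in the nApoE3 experiment. The shared direction did not carry over to size, since the difference between experiments passed the test for 21 of the 36 and only 14 met the limit for alike sizes. Zbp1, a sensor of left-handed nucleic acids, and Ifi44 were at or under 3 counts in every ControlA library, so their fitted changes are not given as measured sizes. Against the floor, the nApoE4 change of Zbp1 was at least 6.08 on the log2 scale and that of Ifi44 at least 4.80. Of the 29 members with a promoter sequence, 18 (62.1%) held the response element GAAANNGAAA. The list was drawn up from the known interferon response, so a shared motif is no separate finding.

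The factors that drive and sense this program rose less evenly. Of 26 tested interferon signalling and nucleic acid sensor genes, 17 rose in both and 3 fell, with a median of 0.80. Irf7, the regulatory factor that amplifies interferon production, measured 3.59, 2.85 and 3.51 CPM in ControlA, 49.2, 49.3 and 49.1 CPM in ApoE4, 3.27, 3.34 and 5.15 CPM in ControlB and 164 and 149 CPM in ApoE3. The treated libraries lay above all controls of their own experiment, and the average log2 change was 4.61 ± 0.094 (adjusted p = 8.27e-14). Ikbke, a kinase that activates interferon regulatory factors, changed by 3.72 ± 0.061 (adjusted p = 1.37e-14). The RNA sensors Ddx58 and Ifih1 changed by 3.64 ± 0.086 and 3.25 ± 0.056. Irf8, a lineage factor of microglia, went the other way, from 125, 126 and 128 CPM to 47.8, 46.3 and 44.8 CPM and from 139, 136 and 138 CPM to 75.5 and 68.4 CPM, a change of −1.19 ± 0.035 (adjusted p = 3.65e-12). The adaptor of cytosolic DNA sensing Tmem173 (STING) fell by 0.59 ± 0.041 on the log2 scale. Ifnb1, the interferon itself, had 0, 2 and 2 counts in ControlA, 43, 30 and 50 in ApoE4, 3, 7 and 9 in ControlB and 75 and 72 in ApoE3, and its change with nApoE4 was at least 3.81 on the log2 scale.

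**Figure D3:**
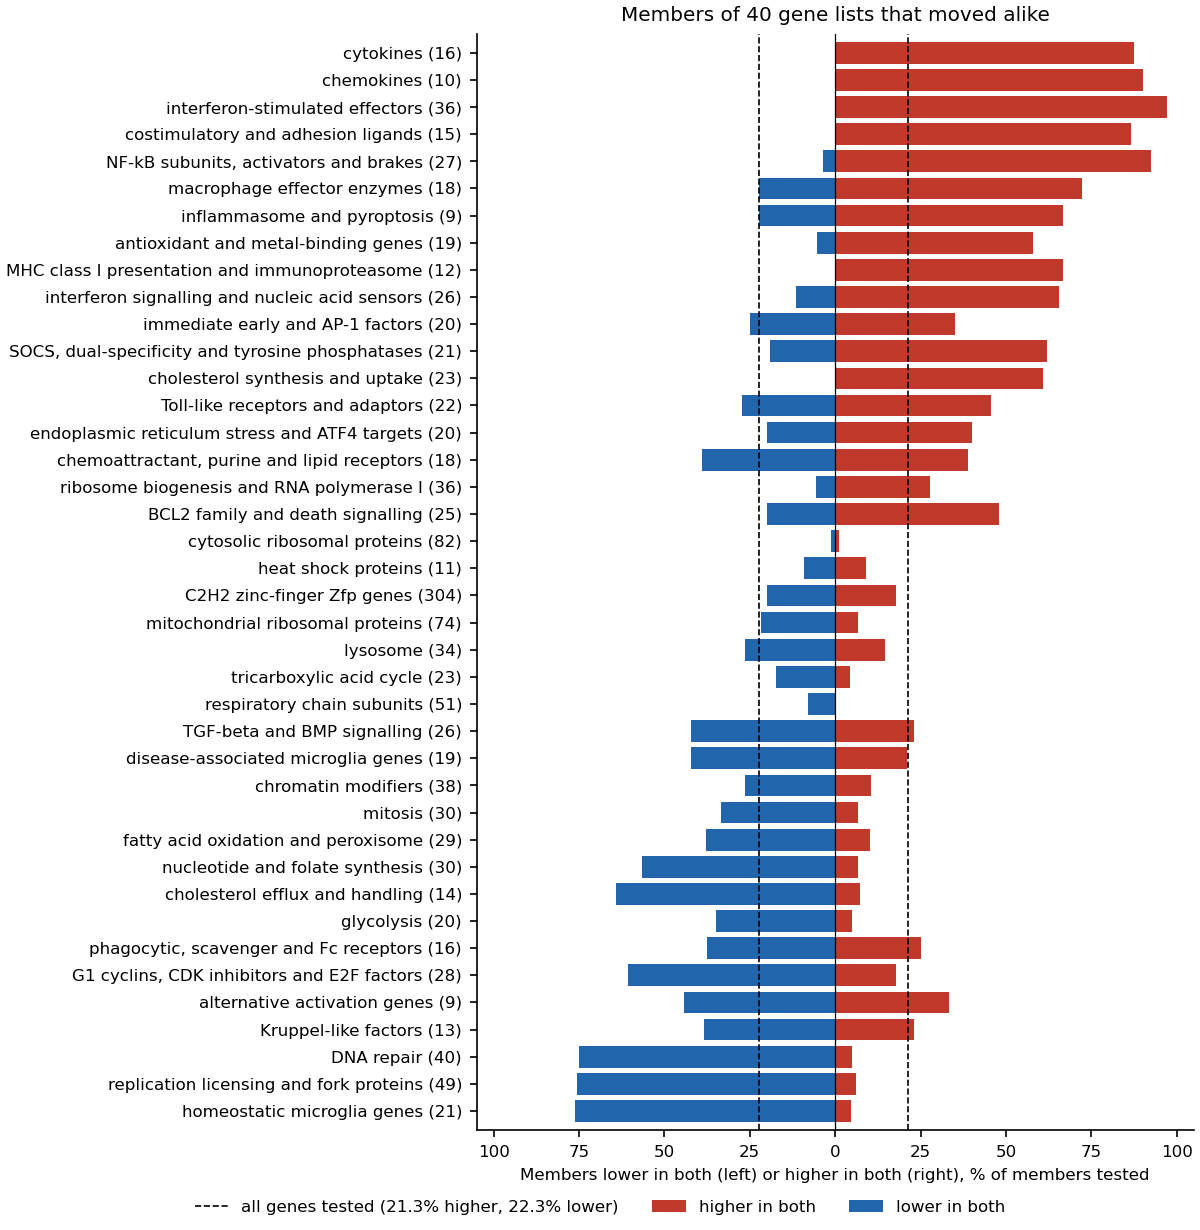
Percent of tested members called lower in both experiments (blue bars, to the left) and higher in both (red bars, to the right) for each of 40 gene lists, with the number of tested members in parentheses, the lists ordered by their median average log2 fold change and the shares over all genes tested as dashed lines. Cytokines, chemokines, interferon-stimulated effectors, costimulatory and adhesion ligands and NF-kB genes lie at the top with the longest red bars, and replication, DNA repair and homeostatic microglia genes at the bottom with the longest blue bars.

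Genes of NF-kB signalling rose in both for 25 of 27 tested members (92.6%, against 21.3% of all genes), 17 of them over 2-fold, with a median of 1.79. Subunits and brakes rose side by side. Nfkb1, the subunit precursor p105, measured 121, 121 and 127 CPM in ControlA, 577, 614 and 572 CPM in ApoE4, 132, 133 and 138 CPM in ControlB and 590.2 and 589 CPM in ApoE3 and changed by 2.20 ± 0.033 (adjusted p = 6.91e-15). The difference between the experiments for Nfkb1 was 0.12 (95% interval −0.021 to 0.26). Tnfaip3, the ubiquitin-editing inhibitor A20, changed by 3.89 ± 0.069, and the atypical and classical inhibitors Nfkbiz and Nfkbie by 3.89 ± 0.047 and 3.50 ± 0.076. Tnip2, an A20-binding protein, was the one member that fell (−0.32 ± 0.033, adjusted p = 1.48e-06), and Map3k7, the kinase TAK1, was not called in both (0.16 ± 0.037).

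Toll-like receptors and their adaptors split by member. Of 22 tested, 10 rose in both, 6 fell (27.3%, against 22.3% of all genes) and 2 were called in opposite directions, with a median of 0.21. Cd14, the co-receptor of Tlr4 for lipopolysaccharide, measured 54.3, 68.5 and 49.5 CPM in ControlA, 397, 372 and 388 CPM in ApoE4, 32.4, 31.3 and 34.1 CPM in ControlB and 381 and 375 CPM in ApoE3. Tlr2, a receptor of bacterial lipoproteins, measured 140.4, 161 and 138 CPM in ControlA, 959.8, 893 and 926 CPM in ApoE4, 194, 208 and 239 CPM in ControlB and 1228 and 1189 CPM in ApoE3. In both genes every treated library exceeded every control of its experiment, with average log2 changes of 3.14 ± 0.070 and 2.58 ± 0.059. Irak3, a brake on the pathway, changed by 2.82 ± 0.047, and the kinase Irak2 by 1.60 ± 0.045. The endosomal receptors of single-stranded and ribosomal RNA went down: Tlr8 from 1.90, 1.54 and 2.34 CPM to 0.187, 0.120 and 0.151 CPM and from 4.41, 4.51 and 3.94 CPM to 0.241 and 0.195 CPM, with a change of −3.96 ± 0.17, and Tlr13 by −1.87 ± 0.047. Tlr4 itself fell by 1.18 ± 0.033 and Tlr9 by 0.90 ± 0.11 on the log2 scale, while Tlr3 rose by 1.55 ± 0.044 and Tlr1 was not called (−0.020 ± 0.032, adjusted p = 0.595), but was called lower with scaling by library size alone (−0.13, adjusted p = 0.00429).

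Secreted signals formed the next group. Of 10 tested chemokines 9 rose in both, each over 2-fold, with a median of 3.70, and of 16 tested cytokines 14 rose, 13 over 2-fold, with a median of 4.21 (3.91 with genes at their bound). With only genes of at least 10 counts in every sample tested, 8 cytokines were left, of which 7 were higher in both, and the median was 1.65. Ccl3, a chemokine that draws monocytes and lymphocytes, measured 121, 149 and 114 CPM in ControlA, 1363, 1278 and 1341 CPM in ApoE4, 56.01, 54.9 and 60.5 CPM in ControlB and 1809 and 1752 CPM in ApoE3. The treated libraries were above all controls of both experiments, and the average changes of Ccl3 and of the related Ccl4 were 4.17 ± 0.066 and 3.66 ± 0.062 (adjusted p = 1.02e-14 and 1.73e-14). Ccl2 and Ccl7, which draw monocytes through Ccr2, rose in both but unequally, by 2.49 and 2.29 with nApoE4 and by 4.64 and 5.20 with nApoE3. Il1b, the precursor of interleukin 1 beta, measured 1.10, 1.03 and 0.964 CPM in ControlA, 229.8, 203 and 235 CPM in ApoE4, 1.93, 1.49 and 2.56 CPM in ControlB and 375 and 344 CPM in ApoE3, with a change of 7.63 ± 0.096 and a difference between experiments of 0.25 (95% interval −0.24 to 0.73). Il27, a cytokine of T-cell regulation, and Il1a changed by 6.81 ± 0.14 and 4.86 ± 0.13. Tgfb1 was not called (0.018 ± 0.040, adjusted p = 0.717).

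Surface ligands and the machinery of inflammasomes followed. Among costimulatory and adhesion ligands 13 of 15 tested rose in both, 11 over 2-fold, with a median of 3.04. Cd40, a receptor through which T cells activate macrophages, measured 15.2, 15.3 and 15.2 CPM in ControlA, 846, 861 and 879.7 CPM in ApoE4, 10.3, 12.04 and 12.4 CPM in ControlB and 443 and 399.8 CPM in ApoE3, a change of 5.51 ± 0.053 (adjusted p = 2.38e-16). No treated library overlapped the controls. Fas, the death receptor, changed by 5.44 ± 0.12 and Cd69, an early activation marker at or under 3 counts in ControlA, by at least 7.43 with nApoE4. Of 9 inflammasome genes 6 rose (66.7%, against 21.3% of all genes) and 2 fell (22.2%, against 22.3%). Nlrp3, the sensor that nucleates caspase 1 activation, measured 48.9, 46.6 and 50.3 CPM in ControlA, 598, 613 and 578 CPM in ApoE4, 34.4, 34.1 and 38.4 CPM in ControlB and 526 and 525 CPM in ApoE3 (3.75 ± 0.042, adjusted p = 7.02e-16). Casp4, which senses cytosolic lipopolysaccharide, changed by 3.05 ± 0.055 and by nearly the same amount in each experiment (3.03 and 3.07). The DNA sensor Aim2 and Nlrp1b fell, by 0.20 ± 0.030 and 0.94 ± 0.14 on the log2 scale.

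Macrophage effector enzymes rose in both for 13 of 18 tested members (72.2%, against 21.3% of all genes) and fell for 4 (22.2%, against 22.3%). Acod1, the enzyme that makes itaconate, measured 8.90, 6.98 and 8.04 CPM in ControlA, 2600.4, 2587 and 2535 CPM in ApoE4, 6.83, 7.71 and 9.60 CPM in ControlB and 1566 and 1519.6 CPM in ApoE3, a change of 7.96 ± 0.086 (adjusted p = 7.02e-16). Nos2, the inducible nitric oxide synthase, measured 0.517, 0.691 and 0.557 CPM in ControlA, 44.5, 38.4 and 39.1 CPM in ApoE4, 0.156, 0.194 and 0.160 CPM in ControlB and 61.6 and 37.7 CPM in ApoE3, with an average change of 7.14 ± 0.17 and a difference between experiments of −2.07 (95% interval −3.19 to −0.95, adjusted p = 0.00933). Lcn2, which binds bacterial siderophores, measured 0.164, 0.335 and 0.321 CPM in ControlA, 23.8, 28.3 and 29.9 CPM in ApoE4, 0.269, 0.501 and 0.248 CPM in ControlB and 33.2 and 29.7 CPM in ApoE3. All treated libraries were above the controls of their experiment in these 3 genes, and Lcn2 changed by 6.57 ± 0.13 with a difference between experiments of 0.091 (95% interval −0.73 to 0.92). The cyclooxygenase genes moved apart: Ptgs2, the inducible one, changed by 5.37 ± 0.064 and Ptgs1, the constitutive one, by −1.60 ± 0.040. In MHC class I presentation 8 of 12 tested genes rose in both, with a median of 0.92. H2-K1, a class I heavy chain, changed by 1.60 ± 0.15, the transactivator Nlrc5 by 1.20 ± 0.072 and the peptide editor Tapbpl by 1.46 ± 0.051. The levels of H2-K1 were low, at 0.564, 0.535 and 0.364 CPM in ControlA and 1.45, 1.93 and 2.07 CPM in ApoE4. They were 0.921, 0.792 and 0.994 CPM in ControlB and 1.98 and 2.52 CPM in ApoE3. Psmb8, an immunoproteasome subunit, and Tap1, a peptide transporter, both named after their values were seen, each had 1 control library far from the others. Psmb8 had 282, 6 and 4 counts in ControlA and 6, 9 and 9 in ApoE4. Its average change was −1.49 ± 0.97 with the first of these libraries and 0.67 without it (adjusted p = 0.193 and 0.0461), and −1.78 without ControlA replicate 2 (adjusted p = 0.0449), so that either direction was called depending on the library left out. Tap1 had 7, 125 and 8 counts in ControlB, and its average change was 0.38 ± 0.74 (adjusted p = 0.667) with all libraries and 1.70 without ControlB replicate 2 (adjusted p = 0.000542).

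Lists of genes that restrain the response, protect from oxidants or control cell death held more shared increases than decreases. Of 21 SOCS genes and dual-specificity or tyrosine phosphatases 13 rose in both, 4 fell and 1 was called in opposite directions. Socs3, an inhibitor of cytokine receptors, measured 13.8, 14.7 and 12.4 CPM in ControlA, 108, 99.9 and 105 CPM in ApoE4, 13.3, 13.7 and 12.6 CPM in ControlB and 74.9 and 66.03 CPM in ApoE3 (2.68 ± 0.052, adjusted p = 5.15e-14), and Dusp16 changed by 1.97 ± 0.033. Dusp6 and Dusp7, phosphatases of ERK, went down by 1.45 ± 0.086 and 1.73 ± 0.036. Of 19 antioxidant and metal-binding genes 11 rose and 1 fell. Slc7a11, the cystine importer, measured 22.9, 20.2 and 22.8 CPM in ControlA, 567, 625 and 584 CPM in ApoE4, 44.1, 42.2 and 43.2 CPM in ControlB and 1035 and 1172 CPM in ApoE3, and the changes in the experiments were 4.76 and 4.67 on the log2 scale. Srxn1 and Txnrd1, targets of Nfe2l2, changed by 2.02 ± 0.051 and 1.65 ± 0.037, and Nfe2l2 itself by 1.01 ± 0.036. In the BCL2 family and death signalling list 12 of 25 rose and 5 fell, with a median of 0.16. The caspase 8 inhibitor Cflar changed by 3.22 ± 0.045, and Bmf, a BH3-only protein that promotes death, by −2.77 ± 0.067. The Bcl2a1 genes rose (Bcl2a1b by 4.29 ± 0.085), but they are near-identical copies, and how reads were split among them is uncertain.

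Immediate early factors did not move as 1 group. Of 20 tested 7 rose in both, 5 fell (25.0%, against 22.3% of all genes) and 3 were called in opposite directions. Batf2 and Atf3, regulators of inflammatory genes, changed by 4.26 ± 0.14 and 1.40 ± 0.042. Fos, a founding member of AP-1, measured 24.7, 31.8 and 28.7 CPM in ControlA, 6.23, 5.29 and 5.37 CPM in ApoE4, 12.3, 12.6 and 14.8 CPM in ControlB and 5.62 and 5.21 CPM in ApoE3 (−1.81 ± 0.081, adjusted p = 2.75e-10), and Egr3 and Fosb fell by 3.29 ± 0.13 and 2.78 ± 0.24. Endoplasmic reticulum stress genes rose for 8 of 20 and fell for 4, with Ppp1r15a, which restores translation, at 1.80 ± 0.048 and the sensor kinase Eif2ak3 at −0.94 ± 0.039. Heat shock proteins rose for 1 of 11 and fell for 1, with a median of 0.033 that turned sign under 3 alternatives. Dnajb1 fell by 0.48 ± 0.042 and Hspa9 rose by 0.27 ± 0.037.

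The 15 largest shared decreases did not belong to 1 list. Cytip, a regulator of cell adhesion through cytohesin, measured 199, 207 and 187 CPM in ControlA, 7.70, 6.02 and 7.43 CPM in ApoE4, 47.7, 47.5 and 49.01 CPM in ControlB and 5.53 and 5.88 CPM in ApoE3. Its controls differed between the experiments, and in each the treated libraries lay below all controls, with an average log2 change of −3.94 ± 0.060 (adjusted p = 7.12e-15). Lbh, a transcription cofactor, measured 22.9, 24.9 and 24.1 CPM in ControlA, 1.52, 1.66 and 1.79 CPM in ApoE4, 35.6, 34.8 and 36.3 CPM in ControlB and 3.04 and 2.89 CPM in ApoE3 (−3.72 ± 0.052, adjusted p = 3.7e-15). Zfp395 and Thbd, the latter thrombomodulin, the thrombin receptor of the anticoagulant pathway, changed by −3.74 ± 0.067 and −3.49 ± 0.065. St6gal1, which adds sialic acid to N-glycans, measured 45.6, 44.5 and 48.1 CPM in ControlA, 3.24, 3.27 and 4.43 CPM in ApoE4, 44.04, 44.6 and 44.8 CPM in ControlB and 4.92 and 4.16 CPM in ApoE3 (−3.48 ± 0.071, adjusted p = 8.27e-14). Lpin1, a phosphatidate phosphatase of lipid synthesis, and Abcd2, a peroxisomal transporter of very long chain fatty acids, changed by −3.37 ± 0.059 and −3.20 ± 0.090. For each of these 7 genes no treated library reached the level of a control library of its experiment. Treated and control libraries were likewise apart in both experiments for 3006 of the 3066 genes lower in both.

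Signalling and adaptor genes were among the rest of the 15. Cxcr4, the receptor of Cxcl12, measured 22.5, 23.6 and 24.5 CPM in ControlA, 1.35, 1.40 and 1.92 CPM in ApoE4, 25.9, 24.2 and 27.5 CPM in ControlB and 6.24 and 5.58 CPM in ApoE3, with a change of −3.92 with nApoE4 and −2.14 with nApoE3. Klhl6, an adaptor of a ubiquitin ligase, changed by −3.23 ± 0.051 and Pik3ip1, an inhibitor of PI3-kinase, by −2.72 ± 0.062. Pik3ip1 measured 37.5, 44.6 and 40.9 CPM in ControlA, 6.06, 5.87 and 6.63 CPM in ApoE4, 20.7, 19.4 and 20.1 CPM in ControlB and 3.23 and 2.87 CPM in ApoE3. Its changes in the experiments, −2.72 and −2.72, lay close together, and the 95% interval of their difference was −0.29 to 0.27. Slc26a11, an anion transporter, and Asb10 and Kbtbd11, adaptor-like proteins of the SOCS-box and BTB-Kelch families, changed by −2.71 ± 0.075, −2.75 ± 0.067 and −2.97 ± 0.062. Tmem86a, a membrane enzyme that cleaves lysoplasmalogens, changed by −2.78 ± 0.12.

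**Figure D4:**
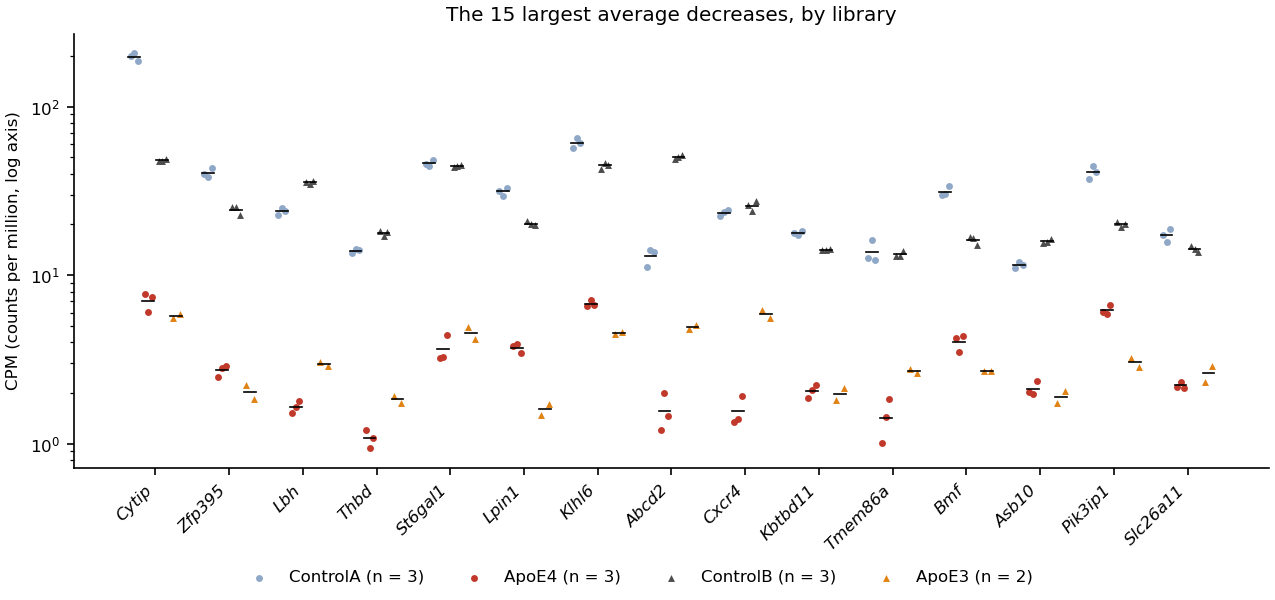
CPM in each library on a log axis for the 15 genes with the largest average decrease, 1 point per library, coloured by group, with a bar at each group's mean. For each gene the treated libraries lie below the controls of their own experiment, and for Cytip the controls of the experiments differ.

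Most replication genes fell in both experiments. Of 49 tested replication licensing and fork proteins 37 (75.5%) fell in both experiments and 3 (6.12%) rose, against 22.3% and 21.3% of all genes. Their median was −0.54, with −0.51 for nApoE4 and −0.60 for nApoE3. A difference between experiments passed the test for 15 of the 49. The limit for alike sizes, a log2 difference within 1, was met by 48, but it is wider than the median change and cannot show like amounts here. Of the 37, 4 fell over 2-fold. Cdc6, which loads the replicative helicase at origins, measured 46.7, 51.2 and 50.2 CPM in ControlA, 14.2, 12.9 and 13.8 CPM in ApoE4, 66.6, 67.1 and 65.3 CPM in ControlB and 19.01 and 19.3 CPM in ApoE3. All treated libraries were below all controls, and the changes were −1.85 and −1.80, with an average of −1.82 ± 0.040 (adjusted p = 1.6e-13). Gmnn, geminin, the inhibitor of licensing, measured 70.7, 78.2 and 67.4 CPM in ControlA, 25.7, 23.97 and 26.3 CPM in ApoE4, 97.5, 96.5 and 97.5 CPM in ControlB and 31.9 and 30.3 CPM in ApoE3 (−1.58 ± 0.045, adjusted p = 2.25e-12). Dna2, a nuclease and helicase of lagging-strand synthesis, and Wdhd1, which links the helicase to DNA polymerase alpha, changed by −1.32 ± 0.044 and −1.30 ± 0.040. All 6 subunits of the MCM helicase, named after their values were seen, fell, with average changes of −0.82 for Mcm2, −0.59 for Mcm3, −0.73 for Mcm4, −0.65 for Mcm5, −0.54 for Mcm6 and −0.84 for Mcm7. Orc1 changed by −0.50 ± 0.041, while Orc3 and Orc4, other subunits of the origin recognition complex, rose by 0.17 ± 0.034 and 0.35 ± 0.040, and Pola2 by 0.15 ± 0.029. With scaling by library size alone, the averages of Orc3 and Pola2 were 0.059 and 0.040 and were not called.

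The promoters of Cdc6 and Dna2 are printed because they hold the E2F element, which belongs to genes of the start of DNA synthesis. It was searched as TTTNNCGC on both strands, and is in capitals as it reads on the plus strand. Cdc6 (chr11:98907901-98908150, plus strand, GRCm38.p6, RefSeq) holds it on the minus strand at bases 113 to 120 of the 250 before the start, and Dna2 (chr10:62946779-62947028, plus strand) on the minus strand at bases 159 to 166.
Cdc6: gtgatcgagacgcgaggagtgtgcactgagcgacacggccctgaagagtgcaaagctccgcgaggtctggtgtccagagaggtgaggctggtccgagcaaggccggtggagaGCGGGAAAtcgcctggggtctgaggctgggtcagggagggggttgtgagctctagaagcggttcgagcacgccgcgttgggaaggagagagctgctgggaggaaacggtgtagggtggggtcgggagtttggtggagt
Dna2: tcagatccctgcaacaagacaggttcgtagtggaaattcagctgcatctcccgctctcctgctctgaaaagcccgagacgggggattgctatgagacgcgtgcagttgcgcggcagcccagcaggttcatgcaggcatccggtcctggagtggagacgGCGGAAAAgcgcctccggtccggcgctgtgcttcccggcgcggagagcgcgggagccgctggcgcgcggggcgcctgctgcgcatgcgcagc
In windows of 300 bases the element was present in 15 of 40 replication promoters (37.5%), in 8 of 31 of DNA repair (25.8%) and in 6 of 19 of the list of G1 cyclins, CDK inhibitors and E2F factors (31.6%), against 8.47% of all promoters. Orc1 and Orc3 also held the element, and Orc3 rose in both, so the element did not go with a decrease in every gene. Over all genes lower in both it was present in 10.1% and over those more than 2-fold lower in 7.14%. The replication, DNA repair and G1 lists were drawn up by known function, so a shared motif is no separate finding.

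DNA repair and the entry to S phase moved with replication. Of 40 tested DNA repair genes 30 fell in both and 2 rose, with a median of −0.51. Ung, the uracil glycosylase, measured 31.3, 33.6 and 32.4 CPM in ControlA, 3.89, 4.64 and 5.22 CPM in ApoE4, 57.8, 57.2 and 57.7 CPM in ControlB and 16.4 and 14.2 CPM in ApoE3 (−2.37 ± 0.061, adjusted p = 8.04e-13). Brca1 of homologous recombination, the checkpoint kinase Chek2 and the mismatch repair factor Msh6 changed by −1.33 ± 0.053, −1.31 ± 0.039 and −1.25 ± 0.034, and Polb and Fancc rose by 0.49 ± 0.044 and 0.43 ± 0.069. Of 28 genes of G1 cyclins, CDK inhibitors and E2F factors 17 fell and 5 rose. Ccnd1, cyclin D1, measured 110.3, 104 and 112 CPM in ControlA, 36.5, 33.4 and 30.4 CPM in ApoE4, 116, 113 and 112 CPM in ControlB and 51.6 and 51.97 CPM in ApoE3 (−1.42 ± 0.045, adjusted p = 7.57e-12). E2f2 and Ccne1, cyclin E1, changed by −1.63 ± 0.043 and −1.45 ± 0.045, and the inhibitor Cdkn1b (p27) by −1.37 ± 0.040. The 5 that rose were Cdk6 (0.70), Btg1 (0.98), Cdkn1a (1.98), Btg2 (2.16) and Myc (3.57), of which Cdkn1a, the inhibitor p21, and the Btg genes are known to slow the cycle, and Cdk6 and Myc to drive it. Myc measured 0.634, 0.848 and 0.643 CPM in ControlA, 8.14, 9.41 and 8.72 CPM in ApoE4, 0.312, 0.420 and 0.497 CPM in ControlB and 4.73 and 4.61 CPM in ApoE3.

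Nucleotide synthesis and mitosis moved less. Of 30 genes of nucleotide and folate synthesis 17 fell in both, 2 rose and 3 were called in opposite directions. Tk1, thymidine kinase, measured 93.3, 98.99 and 93.9 CPM in ControlA, 48.5, 47.9 and 45.5 CPM in ApoE4, 77.8, 74.4 and 78.2 CPM in ControlB and 30.2 and 29.97 CPM in ApoE3 (−1.18 ± 0.034, adjusted p = 2.83e-12), and Rrm2, the regulated subunit of ribonucleotide reductase, changed by −0.91 ± 0.033. Mthfd2, a mitochondrial folate enzyme, rose by 0.89 ± 0.036. Of 30 mitosis genes 10 fell (33.3%, against 22.3% of all genes) and 2 rose (6.67%, against 21.3%). The median was −0.16, and 16 fell with scaling by library size alone. Bub1b of the spindle checkpoint and Aurkb changed by −0.57 ± 0.038 and −0.56 ± 0.032, while Top2a rose by 0.24 ± 0.035. Cdk1, the mitotic kinase, was called in opposite directions (−0.24 with nApoE4 and 0.21 with nApoE3), and its average of −0.015 ± 0.051 was not called (adjusted p = 0.813), but was called lower with scaling by library size alone (−0.13, adjusted p = 0.0216).

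**Figure D5:**
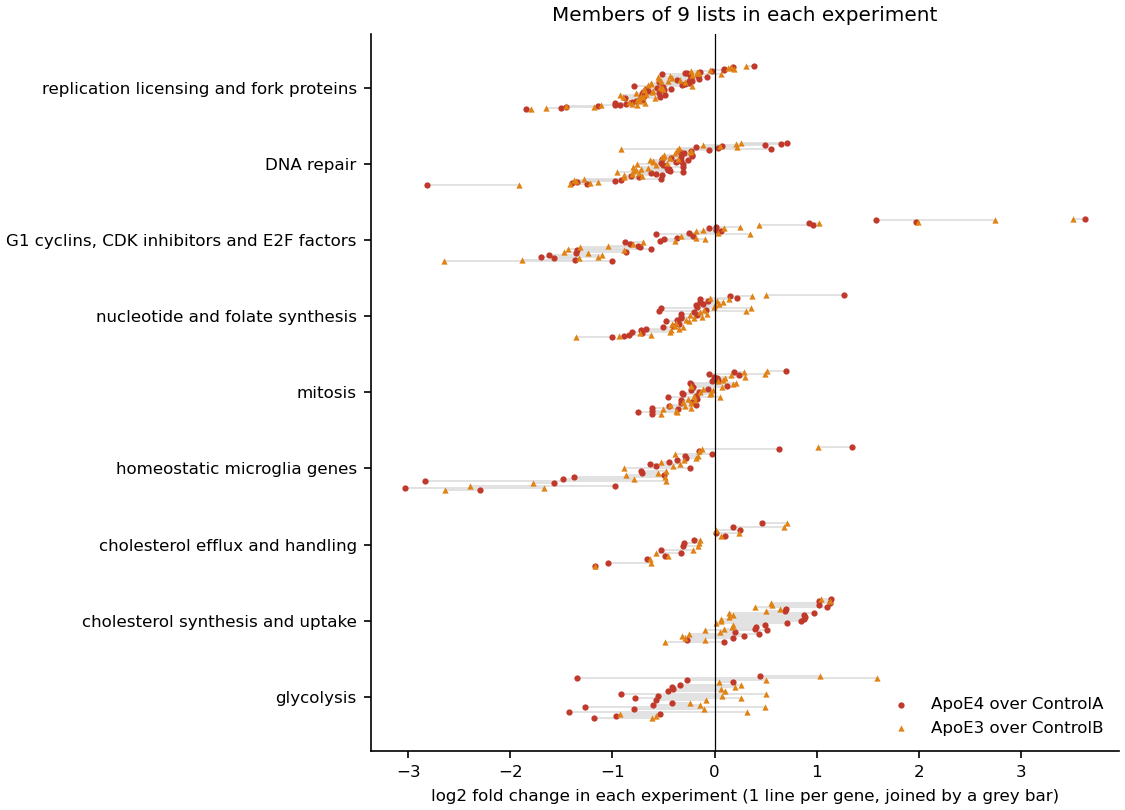
Log2 fold change of each tested member of 9 lists with nApoE4 1–151 (red circles) and nApoE3 1–151 (orange triangles), each gene on its own line with its pair of values joined by a grey bar. Replication, DNA repair and homeostatic microglia genes lie mostly below 0 in both experiments, most genes of cholesterol synthesis and uptake lie above 0, and most glycolysis genes lie below 0 with nApoE4 1–151 and not with nApoE3 1–151.

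Genes of the resting microglial state were among the shared decreases. Of 21 tested homeostatic microglia genes 16 fell in both, 1 rose and 1 was called in opposite directions, with a median of −0.56. Mertk, a receptor for the uptake of dying cells, measured 43.2, 40.5 and 53.3 CPM in ControlA, 8.70, 9.84 and 9.22 CPM in ApoE4, 95.01, 95.2 and 96.9 CPM in ControlB and 15.3 and 15.5 CPM in ApoE3 (−2.47 ± 0.068, adjusted p = 1.83e-12). Tmem119, a marker of brain-resident microglia, and the factor Mef2c changed by −1.69 ± 0.10 and −1.68 ± 0.048. Spi1 (PU.1), the master factor of the lineage, was the member that rose, by 1.18 ± 0.041. Trem2, a lipid receptor, was not called in both (adjusted p = 0.203), with 2578, 112 and 62 counts in ControlA, where 1 library stood far above the other two, as well as 51, 220 and 97 in ApoE4, 52, 50 and 35 in ControlB and 39 and 21 in ApoE3. Its average change was −1.66 ± 1.10 with that library and 0.083 without it (adjusted p = 0.865).

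Disease-associated microglia genes went both ways. Of 19 tested 4 rose in both (21.1%, against 21.3% of all genes), 8 fell (42.1%, against 22.3%) and 1 was called in opposite directions. The median was −0.15, and 4 fell in a fit with replicate number as a block or without ApoE4 replicate 1. Axl, a receptor of the Mertk family, measured 0.0470, 0.0223 and 0.0857 CPM in ControlA, 0.536, 0.433 and 0.328 CPM in ApoE4, 0.0567, 0.0969 and 0.177 CPM in ControlB and 1.10 and 1.17 CPM in ApoE3 (3.19 ± 0.30, adjusted p = 6.53e-07), and Spp1, osteopontin, changed by 0.87 ± 0.061. Apoe, the cell's own apolipoprotein E, measured 1739.9, 2013 and 1719 CPM in ControlA, 1505, 1371 and 1454 CPM in ApoE4, 2415, 2335 and 2481 CPM in ControlB and 1665 and 1594 CPM in ApoE3. The treated libraries were below the controls of their experiment, by 0.45 ± 0.047 on average (adjusted p = 1.58e-06). Of 16 phagocytic, scavenger and Fc receptors 4 rose (25.0%) and 6 fell (37.5%). The scavenger receptor Marco changed by 4.08 ± 0.066 and the Fc receptor Fcgr3 by −0.97 ± 0.057. Of 18 chemoattractant, purine and lipid receptors 7 rose and 7 fell (38.9% each). Ccrl2 and Gpr84, which rise on macrophage activation, changed by 5.95 ± 0.11 and 4.53 ± 0.063, and the lysophosphatidic acid receptor Lpar5 by −2.53 ± 0.054. Of 9 alternative activation genes 3 rose (33.3%) and 4 fell (44.4%), with Mrc1, the mannose receptor, at −0.40 ± 0.033 and Tgm2 at 1.35 ± 0.085. Arg1, arginase 1, was not called in both, and its control levels were 39.97, 41.3 and 35.7 CPM in ControlA and 0.467, 0.436 and 0.213 CPM in ControlB.

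Chromatin, Kruppel-like and lysosomal genes were mixed. Of 38 chromatin modifiers 4 rose in both and 10 fell (26.3%, against 22.3% of all genes). Hdac5, a class II histone deacetylase, measured 131, 119.9 and 138 CPM in ControlA, 45.6, 49.3 and 46.1 CPM in ApoE4, 93.99, 93.6 and 93.99 CPM in ControlB and 25.7 and 25.4 CPM in ApoE3 (−1.67 ± 0.042, adjusted p = 7.33e-13). Dnmt1 and Uhrf1, which copy DNA methylation after replication, changed by −1.08 ± 0.050 and −1.23 ± 0.041, and the demethylases Kdm4a and Tet2 rose by 1.79 ± 0.035 and 1.52 ± 0.10. Of 13 Kruppel-like factors 3 rose (23.1%, against 21.3% of all genes) and 5 fell (38.5%). Klf10 and Klf4 changed by −1.41 ± 0.055 and −1.13 ± 0.064 and Klf6 by 1.18 ± 0.033. Of 34 lysosome genes 5 rose and 9 fell (26.5%, also near the share of all genes), with a median of −0.057, and 14 fell with scaling by library size alone. Tfeb, the regulator of lysosome genes, measured 45.8, 47.04 and 42.1 CPM in ControlA, 12.9, 14.7 and 12.4 CPM in ApoE4, 31.9, 31.2 and 30.8 CPM in ControlB and 9.54 and 9.78 CPM in ApoE3. Every treated library was below every control of its experiment (−1.72 ± 0.050, adjusted p = 2.95e-12), and Mitf, a factor of the same family, rose by 0.95 ± 0.061.

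Most listed genes of cholesterol synthesis and uptake rose, and most of cholesterol efflux and handling fell. Of 23 genes of cholesterol synthesis and uptake 14 rose in both (60.9%, against 21.3% of all genes) and 2 were called in opposite directions. The median was 0.45 for the average change, 0.70 with nApoE4 and 0.14 with nApoE3. A difference between experiments passed the test for 16 of the 23, and 7 rose with scaling by library size alone. Hsd17b7, a synthesis enzyme, measured 44.1, 41.3 and 41.3 CPM in ControlA, 101, 88.4 and 89.9 CPM in ApoE4, 36.4, 34.4 and 34.4 CPM in ControlB and 71.6 and 73.6 CPM in ApoE3 (1.09 ± 0.041, adjusted p = 4.27e-11). The enzymes Msmo1 and Idi1 changed by 0.84 ± 0.047 and 0.79 ± 0.049, and the regulator Srebf2 by 0.29 ± 0.038. Of 14 genes of cholesterol efflux and handling 9 fell (64.3%, against 22.3% of all genes) and 1 rose. Abcg1, an exporter to high-density lipoprotein, measured 105, 100.2 and 109 CPM in ControlA, 49.8, 55.7 and 46.8 CPM in ApoE4, 105, 106 and 101 CPM in ControlB and 70.9 and 64.8 CPM in ApoE3 (−0.83 ± 0.047, adjusted p = 3.37e-09), and Scarb1 changed by −0.65 ± 0.034. Nr1h3 (LXR alpha), the factor that raises Abcg1, was the one that rose (0.59 ± 0.035). Of 29 genes of fatty acid oxidation and peroxisomes 3 rose and 11 fell, with Cpt1a, which admits fatty acids to mitochondria, at −0.86 ± 0.043 and Acadm at −0.73 ± 0.047.

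Among mitochondrial energy genes and mitochondrial ribosomal proteins, the number that fell depended on the scaling. Of 51 respiratory chain subunits 4 fell in both (7.84%, against 22.3% of all genes), with a median of −0.12. Without ControlA replicate 3 the number that fell was 13, and with scaling by library size alone it was 23. Over all genes the number lower in both was 3066, with 3022 without ControlA replicate 3 and 4092 with scaling by library size alone. The number thus rose under that scaling over all genes too, but by a smaller proportion than among respiratory chain subunits. Without ControlA replicate 3 it rose among these subunits and not over all genes. Ndufv3 of complex I showed the largest of these decreases (−0.48 ± 0.053, adjusted p = 3.1e-06). Of 23 genes of the tricarboxylic acid cycle 1 rose and 4 fell (17.4%, against 22.3% of all genes). In this list 8 fell without ControlA replicate 3 and 13 fell with scaling by library size alone. Dld rose by 0.58 ± 0.044 and Mdh1 changed by −0.39 ± 0.057. Of 74 mitochondrial ribosomal proteins 5 rose and 16 fell (21.6%, against 22.3% of all genes), and 30 fell with scaling by library size alone. Of 82 cytosolic ribosomal proteins 1 rose and 1 fell, with a median of 0.05 that turned sign under 2 alternatives. Without ControlA replicate 2, 18 of the cytosolic list rose. Ribosome biogenesis genes rose for 10 of 36 (27.8%, against 21.3% of all genes) and fell for 2 (5.56%). Rrs1 changed by 0.86 ± 0.039 and the RNA polymerase I factor Ubtf by −0.58 ± 0.035.

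The genes with the most equal response were found by the interval of the difference between experiments among genes over 2-fold in both, and that criterion chose them, so their likeness is a description. Among the increases were Parp9, an ADP-ribosyltransferase of the interferon response, with 2.64 and 2.62, Acsl1, which activates long-chain fatty acids, with 1.60 and 1.58, and Alcam, an adhesion molecule, with 1.29 and 1.30 on the log2 scale for nApoE4 and nApoE3. Acsl1 measured 136, 137 and 140.3 CPM in ControlA, 423, 431 and 399 CPM in ApoE4, 115, 112 and 110.1 CPM in ControlB and 338 and 337 CPM in ApoE3, and the 95% interval of its difference was −0.13 to 0.15. Among the decreases were Nceh1, a neutral cholesterol ester hydrolase, with −1.17 and −1.17, Cerk, ceramide kinase, with −1.39 and −1.40, and Tef, a transcription factor under circadian control, with −1.41 and −1.46. Nceh1 measured 162, 179 and 177 CPM in ControlA, 71.9, 79.1 and 78.6 CPM in ApoE4, 197, 197 and 196 CPM in ControlB and 87.9 and 87.5 CPM in ApoE3, with an interval of −0.17 to 0.15. Treated and control libraries did not overlap in either experiment for Acsl1 or Nceh1.

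The average hides genes that the experiments moved apart. Glycolysis held many of these, as 11 of 20 tested members were called in opposite directions, 7 fell in both and 1 rose, and 4 fell with both contrasts taken from 1 fit or without ApoE3 replicate 2. Slc2a1, the glucose transporter Glut1, measured 234, 247 and 218 CPM in ControlA, 89.95, 91.5 and 92.1 CPM in ApoE4, 50.1, 50.9 and 57.2 CPM in ControlB and 171 and 147 CPM in ApoE3. Its change was −1.35 with nApoE4 and 1.59 with nApoE3, so that its average of 0.12 ± 0.051 was not called (adjusted p = 0.0519). Hilpda, a lipid droplet protein, and Il7r, the receptor of interleukin 7, also went down with nApoE4 (−1.49 and −1.19) and up with nApoE3 (1.03 and 1.24), and Ankrd44 the other way (1.02 and −1.06). These 4 genes were chosen for this pattern. Pdk1, which diverts pyruvate from mitochondria, fell in both, by 0.90 ± 0.043, and Pfkfb3, an activator of glycolysis, rose by 0.74 ± 0.040.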

How the data were processed

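RNA of BV2 cells was sequenced as single-end reads of 75 bases on a HiSeq4000. Per the labels and the methods of the study, the authors trimmed reads with Trim Galore 0.5.0, checked them with FastQC 0.11.8, aligned them with HISAT2 2.1.0 to GRCm38.p6 and counted them on genes with HTSeq 0.11.0. The authors deposited raw counts, without normalization, for 36529 genes in each of 11 samples. The annotation release, strand setting and overlap mode are not given in the sources used here, so genes that overlap or lie antisense to each other cannot be told apart. Reads on no gene or on more than 1 gene were kept out of library sizes and tests.

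Tests were made in edgeR 4.0.16 (R 4.3.3) by filterByExpr, TMM scaling, 4 group means and the quasi-likelihood F test, at a Benjamini-Hochberg adjusted p-value under 0.05. The average effect and the difference between experiments came from all 11 samples (15287 genes), and calls in each experiment from separate fits (14240 and 14817 genes). Standard errors are the log2 change divided by the square root of F. The biological coefficient of variation was 0.0838 in the nApoE4 experiment and 0.0262 in the nApoE3 experiment. Tested on simulated counts of 13432 genes, a 1.5-fold change in both experiments was recovered in both for 88.1% of genes and a 2-fold change for 100%. The changed genes were drawn from well-counted genes only, and all genes of an experiment had the same variation. These shares therefore do not cover genes with low counts.

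Genes are named by rule: the 12 largest average increases and 15 largest decreases with a mean of at least 10 CPM in both treated or both control groups (for increases, also more than 3 counts in a control of each experiment), the 6 most alike in each direction, in each of 40 lists the largest changes (up to 4 in the direction more of the list takes and up to 2 in the other) and the first member, and 4 genes called in opposite directions. A few genes the rule selects are not reported here, and members described only by their list's counts are not named. Members and lists were chosen with earlier results of these data known. Promoters are from RefSeq on GRCm38.p6, matched by symbol for 10356 of 13750 genes. Alternatives were DESeq2 1.42.0, other scalings and filters, thinned counts, voom in limma 3.58.1, 1 fit for both contrasts, a 2-fold threshold, a replicate block and leaving out each replicate.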

Additional observations from a re-analysis of the deposited data

Results flagged for a closer look

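The changes with nApoE4 and with nApoE3 differed, by edgeR's test of the difference between the experiments (adjusted p under 0.05), for 108 of 201 named genes, 42 with a higher value for nApoE4 and 66 with a lower one, against 30.8% of all genes. The named genes were chosen from these same data, many for large changes and some for alike or opposite ones. Their share is therefore not comparable with that of all genes. Most of the 108 moved the same way in both experiments and by unequal amounts. The values below are log2 changes with nApoE4 minus those with nApoE3, and fragment and experiment cannot be told apart.

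Among interferon genes the difference was 1.41 for Ikbke, 1.30 for Trim30a and 1.24 for Gbp5. Lower with nApoE4 were the changes with a difference of −1.44 for Irf7, −1.30 for Gbp3, −0.964 for Ddx58, −0.962 for Gbp7, −0.673 for Samhd1, −0.510 for Irf8, −0.472 for Tmem173 and −0.418 for Ifih1. Among genes of NF-kB, Toll-like receptor and kinase signalling the difference was 0.800 for Traf1, 0.739 for Nfkbie, 0.520 for Socs3 and 0.259 for Nfkbiz. Lower with nApoE4 were the changes with a difference of −2.22 for Tlr13, −1.17 for Tlr3, −1.05 for Fos, −0.974 for Egr3, −0.786 for Cd14, −0.779 for Tlr4, −0.608 for Atf3, −0.487 for Irak2 and −0.330 for Tnip2. It was −0.260 for Dusp16 and −0.227 for Dusp7. Among secreted, surface and effector genes the difference was 2.26 for Fas, 1.35 for Il27, 0.774 for Cxcl2, 0.746 for Acod1, 0.635 for Cd40, 0.425 for Ccl4 and 0.273 for Ptgs1. Lower with nApoE4 were the changes with a difference of −2.92 for Ccl7, −2.73 for Ccl12, −2.16 for Ccl2, −2.07 for Nos2, −1.59 for Ccl3, −1.26 for Ptgs2, −1.09 for Il1a, −0.265 for Nlrp3 and −0.214 for Aim2.

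Among genes of the cell cycle, DNA and chromatin the difference was 0.755 for Mthfd2, 0.541 for Kdm4a, 0.515 for Cdk6, 0.506 for E2f2, 0.435 for Polb, 0.429 for Fancc, 0.412 for Hdac5, 0.384 for Uhrf1 and 0.339 for Tk1. It was 0.314 for Rrs1 and 0.306 for Wdhd1. Lower with nApoE4 were the changes with a difference of −1.18 for Btg2, −0.916 for Ung, −0.574 for Orc1, −0.569 for Ccnd1, −0.533 for Cdkn1b, −0.460 for Cdk1, −0.392 for Aurkb, −0.287 for Dna2 and −0.261 for Ccne1. It was −0.215 for Msh6. Among metabolic, antioxidant and lysosome genes the difference was 0.689 for Cpt1a, 0.565 for Msmo1, 0.455 for Idi1, 0.383 for Dld and 0.219 for Srebf2. Lower with nApoE4 were the changes with a difference of −2.94 for Slc2a1, −0.605 for Pfkfb3, −0.580 for Pdk1, −0.453 for Srxn1, −0.427 for Abcg1, −0.309 for Acadm and −0.259 for Nr1h3. Among other genes the difference was 2.07 for Ankrd44, 1.41 for Tmem119, 1.13 for Tubb3, 0.670 for Bcl2a1b, 0.630 for Slc1a2, 0.628 for Asb10, 0.611 for Klf4, 0.587 for Lpin1 and 0.553 for Marco. It was 0.534 for Skil, 0.440 for Gpr84 and 0.320 for Spi1. Lower with nApoE4 were the changes with a difference of −2.53 for Hilpda, −2.44 for Il7r, −1.79 for Cxcr4, −1.74 for Cytip, −1.49 for Lpar5, −1.38 for Trim30d, −1.30 for Trim34a, −1.14 for Smad6 and −0.968 for Tmem86a. It was −0.943 for Trim12c, −0.903 for Smad3, −0.794 for Kdr, −0.702 for Mbp, −0.539 for Klf10, −0.505 for Slc26a11, −0.440 for Trim12a, −0.409 for Thbd and −0.346 for Tgfb1. It was −0.334 for Fcgr3, −0.324 for Klf6 and −0.319 for Dnajb1.

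Reads that the counting placed on no gene took a larger share in treated than in control libraries, by 0.204 percentage points with nApoE4 and 0.0951 with nApoE3. Reads placed on more than 1 gene did so by 0.139 and 0.188 percentage points. Every treated library was above every control of its experiment in both shares.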

How the results depend on the processing

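No gene called in both experiments was called in both the other way when a replicate was left out, counts were thinned or the filter or test was changed. Other scalings shift all genes alike, so they bear on counts and small changes and not on the direction of large ones. The counts of genes higher on average, lower on average, higher in both, lower in both and opposite (4987, 5047, 2925, 3066 and 502) stayed within 1.5 times under all alternatives but a required fold change above 2, which gave 1509, 1003, 902, 540 and 10. DESeq2 gave 4932, 4908, 2796, 2887 and 442, and scaling by library size alone 3867, 6492, 2228, 4092 and 503. Leaving out each replicate in turn gave 4546 to 5305 higher on average, 4623 to 5302 lower on average, 2660 to 3148 higher in both, 2745 to 3265 lower in both and 395 to 574 opposite. Where this left ApoE3 with 1 sample, that sample was assumed to vary like the other groups.

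Neither labels nor methods say that equal replicate numbers are pairs. Deviations of control and treated libraries with the same number correlated at −0.039, −0.17, −0.062, −0.0079 and −0.013. With so few samples per group the deviations within a group cancel out, so these values cannot decide whether the samples are paired. A fit with replicate number as a block gave 4342, 4435, 2591, 2680 and 376 genes in the same order.

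Of 4187 recomputed values of 201 named genes, 10 changed sign, for 4 genes whose averages were not called. Cdk1 became 0.0054 with at least 10 counts in every sample and ranged from −0.050 to 0.019 as replicates were left out. Tgfb1 became −0.022 with upper-quartile scaling, −0.093 with library size alone, −0.017 with genes of at least 1 count, and ranged from −0.0047 to 0.033 as replicates were left out. Psmb8 and Trem2 became 0.67 (adjusted p = 0.0461) and 0.083 without ControlA replicate 1 and were as low as −1.78 and −2.02 without other replicates, and Psmb8 was called lower without ControlA replicate 2 (−1.78, adjusted p = 0.0449). With library size alone Tlr1 (−0.13, adjusted p = 0.00429) and Cdk1 (−0.13, adjusted p = 0.0216) became called, and the calls of Orc3, Map3k7 and Pola2 were lost (0.059, 0.043 and 0.040). Tap1 became called without ControlB replicate 2 (1.70, adjusted p = 0.000542), and Samhd1 lost its call with 1 common effect fitted for both experiments (0.16, adjusted p = 0.207). The edgeR test gave these p-values unless another is named. The cause was not tested. Depth limits genes near 3 counts, whose fold changes are bounds, and 2 treated libraries limit the nApoE3 experiment.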

Other observations

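Genes over 2-fold in both experiments often lay beside one another. Of 852 such increases with a position, 329 (38.6%) had a neighbouring tested gene that also rose over 2-fold in both, against 10.4% of other genes. For the decreases it was 94 of 502 (18.7%) against 7.13%. Neighbours can share reads where genes overlap, and their part was not tested. On chromosome 3 the run Gbp5, Gbp7, Gbp3 and Gbp2 rose together, with average log2 changes of 8.75, 3.49, 4.52 and 7.55. On chromosome 11 Ccl2, Ccl7 and Ccl12, chemokines for monocytes, rose by 3.56, 3.75 and 3.64. On chromosome 7 the antiviral restriction factor genes Trim34a, Trim5, Trim12a, Trim12c, Trim30a and Trim30d rose by 1.97 to 3.46. Long non-coding RNAs made up 16.4% of the increases and 13.1% of the decreases over 2-fold with a known type, against 10.2% of all such genes. Without the 2-fold limit they made up 9.31% of genes higher in both and 5.97% of genes lower in both, so the larger share is confined to large changes.

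TGF-beta and BMP signalling is a pathway that supports the homeostatic state. Its genes fell in both for 11 of 26 tested (42.3%, against 22.3% of all genes). They rose for 6 (23.1%, against 21.3%), and the median was −0.12. Smad3, the signal transducer, measured 19.1, 17.3 and 21.2 CPM in ControlA, 7.32, 7.44 and 7.43 CPM in ApoE4, 24.5, 23.96 and 24.1 CPM in ControlB and 17.9 and 16.8 CPM in ApoE3 (−0.93 ± 0.052, adjusted p = 2.81e-09 by edgeR), and every treated library was below every control of its experiment. The inhibitory Smad6 changed by −0.97 ± 0.076 and the repressor Ski by −0.85 ± 0.041, while Skil, a relative of Ski, rose by 0.97 ± 0.037. C2H2 zinc-finger genes with a Zfp symbol rose in both for 54 of 304 and fell for 61, close to the shares of all genes, with a median of −0.035. The CCAAT box was present in 19 of 26 mitosis promoters (73.1%) and in 15 of 17 of cholesterol synthesis and uptake (88.2%), against 38.4% of all. These lists too were drawn up by known function, so a shared motif is no separate finding.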
